A study of Mus musculus with 2 samples.

Results

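The genes *Fn1*, *Spp1*, *Thbs1*, *Vcan*, *Tgfbi*, *Col14a1*, *Ecm1* and *Sparc* encode secreted glycoproteins of the extracellular matrix, and their transcripts were followed in leukocytes of the mouse aortic adventitia. The 8 genes were chosen by symbol, and each was found once among the 55386 features of both libraries. Single CD45-positive cells were captured by droplet sequencing (10x 3′, each UMI being 1 captured transcript molecule) from adventitia of *Rank*-Cre *Rosa26*-eYFP mice aged 16 weeks. The steady-state library came from mice without AngII (3 animals pooled), and the AngII library from mice given angiotensin II at 1.8 µg/kg/min for 10 days (2 animals pooled). Both groups carried the same alleles. *Rank*-driven Cre leaves an eYFP mark on cells whose line once expressed *Rank*, which the study used to tell yolk-sac-derived macrophages from those made by bone marrow. The animals of a library cannot be separated, and with 1 library per condition, condition and library cannot be told apart. No test was possible and none was made. Intervals are 95% exact Poisson intervals for levels and ratios and Clopper-Pearson intervals for shares of cells. They cover counting error only.

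Matrix glycoproteins link cells to collagen and to each other, and several of them bind integrins on the cell surface. Fibroblasts and smooth muscle cells make most of the matrix of an artery, but macrophages and monocytes also secrete fibronectin, osteopontin and thrombospondin. These proteins are best known from wound repair, where they form provisional matrix, guide cell migration and control growth factors stored outside cells.

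The libraries differed in size and depth. At steady state there were 346 barcodes with 4009678 UMIs (median 8374.5 per barcode), and on AngII 4419 barcodes with 20481854 UMIs (median 1117). No barcode sequence occurred in both. Barcodes had to show 300 to 6500 genes, with mitochondrial transcripts making up no more than 5%, and 306 and 4198 cells remained, with medians of 9105 and 1092 UMIs. Cells were placed in the class of whose 8 markers they held the most, with at least 2 markers needed. This gave 139 macrophages at steady state and 2064 on AngII, and 12 and 333 monocytes. None of the 8 genes was a marker. On AngII 781 cells (18.6%, median 783 UMIs) stayed unassigned, 309 classed cells held exactly 2 markers and 1046 led by 1 marker; at steady state these numbers were 10, 0 and 23. Macrophages held a median of 7 of their 8 markers at steady state and 5 on AngII. Doublets were left in: 40 macrophages at steady state and 577 on AngII held 2 or more markers of another lineage.

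Cells of the vessel wall also express several of the 8 genes, so their markers were counted in the macrophages. The summed level of 8 fibroblast markers was 9.12 CPM (the usual scaling of a gene's UMIs to the total UMIs of its group) at steady state, with 4 of 8 detected, *Dcn* the most abundant and *Pdgfra*, *Lum*, *Col1a1* and *Col1a2* at 0. On AngII it was 12.0 CPM, with 7 of 8 detected, *Pi16* the most abundant and *Pdgfra* at 0. Smooth muscle markers summed to 27.9 CPM (4 of 8 detected, *Mylk* highest, *Myh11* and *Cnn1* at 0) and 6.97 CPM (6 of 8, *Acta2* highest, *Myh11* at 0). Endothelial markers reached 21.5 CPM (4 of 8, *Egfl7* highest, *Kdr* at 0) and 16.6 CPM (7 of 8, *Pecam1* highest, *Cldn5* at 0). Platelet markers, relevant because platelets carry thrombospondin, reached 4.83 CPM (2 of 8, *Ppbp* highest, *Gp9* at 0) and 9.76 CPM (4 of 8, *Ppbp* highest, *Gp9* at 0). The median macrophage held 0 markers of each of these lists in both libraries. The macrophages' own markers summed to 14991 and 12616 CPM, and those of monocytes, a neighbouring class, to 648 and 1884 CPM in them. The part of vessel-wall cells or platelets in the levels of the 8 genes was not tested.

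On AngII macrophages and monocytes together carried most UMIs of each of the 8 genes. At steady state *Sparc* and *Vcan* were exceptions, with 75.8% of the *Sparc* UMIs in 1 smooth-muscle-gated barcode and 48.8% of the *Vcan* UMIs in 1 nonclassical monocyte. Macrophages held 69.9% of the *Fn1* UMIs of the filtered cells at steady state and 68.5% on AngII. They also held most *Ecm1* UMIs (79.0% and 76.6%), *Tgfbi* UMIs (76.7% and 56.2%) and *Col14a1* UMIs (83.7% and 94.6%). *Thbs1* and *Vcan* were shared with monocytes, which held 32.0% and 50.9% of their UMIs on AngII. B cells, which serve as the background for free RNA, held 0 to 2 UMIs of each gene at steady state (51 cells, median 5591 UMIs). On AngII (109 cells, median 3339 UMIs) *Fn1* reached 228 CPM in B cells, where 1 cell held 69.2% of the UMIs. In the 84 AngII B cells with fewer than 2 macrophage markers, *Fn1* stood at 58.1 CPM, *Tgfbi* at 54.5 CPM and *Spp1* at 10.9 CPM. In the 208 AngII T cells with fewer than 2 macrophage markers these levels were 30.9, 14.4 and 60.8 CPM, and 12.5% of them held *Spp1*.

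**Figure D1:**
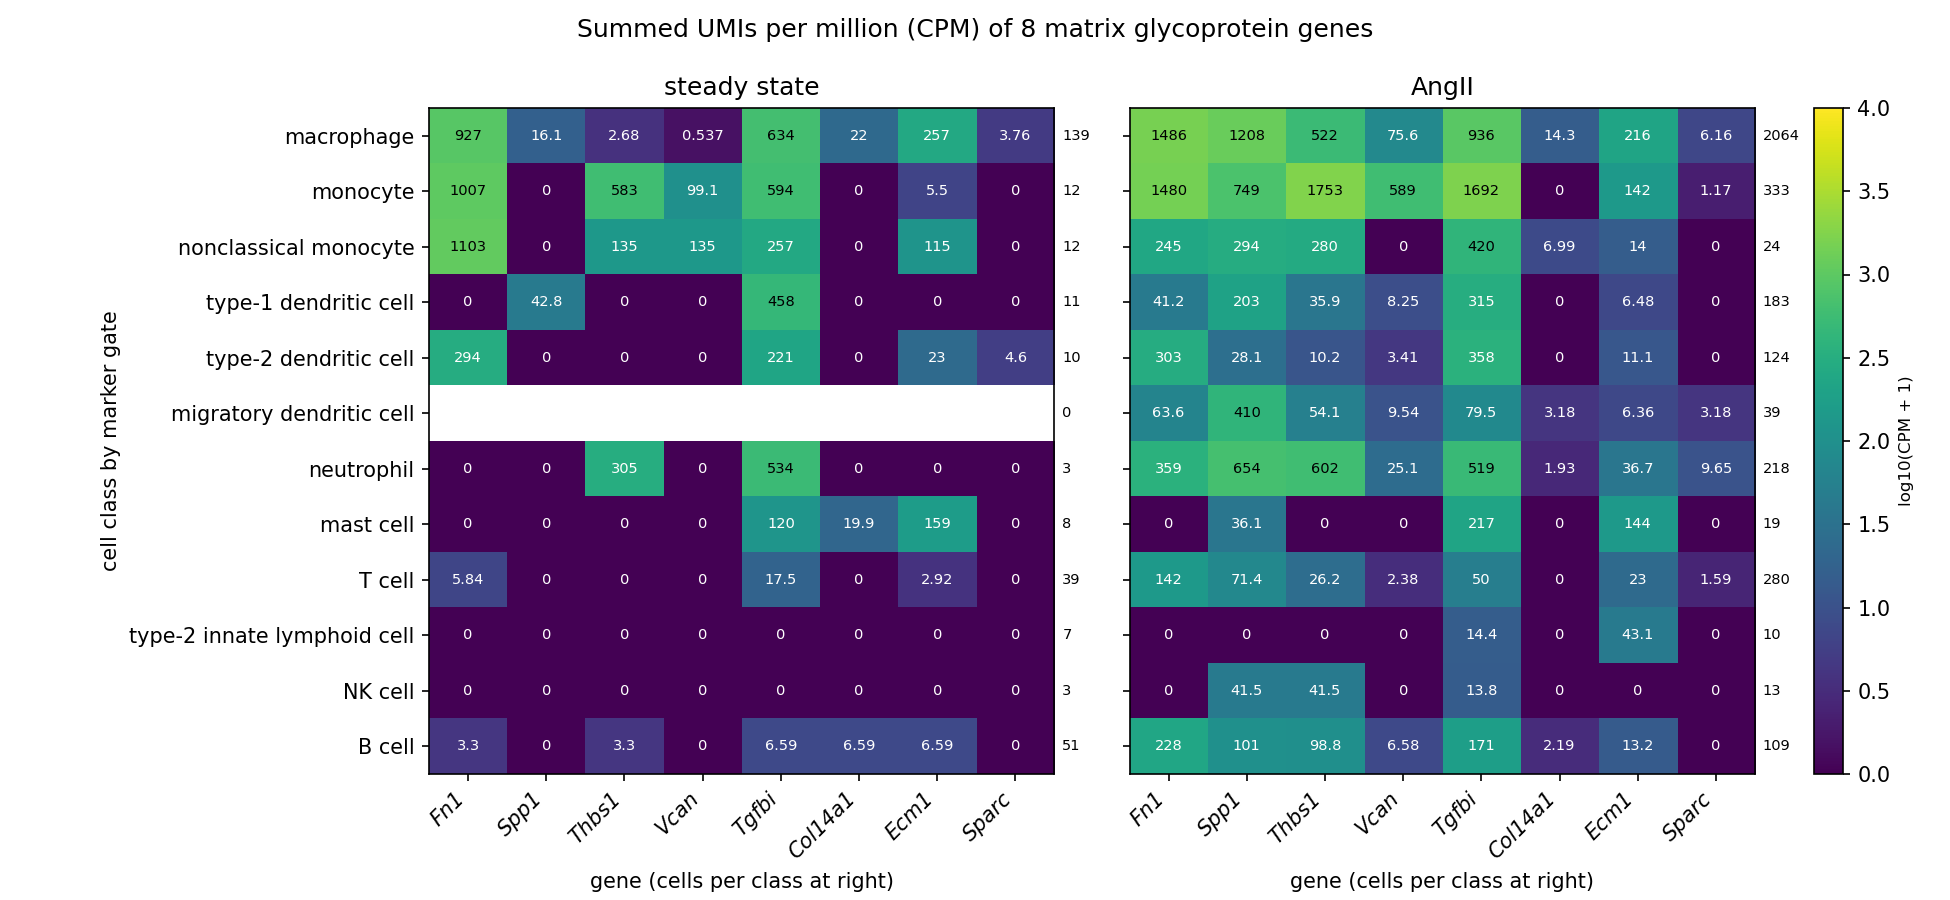
Levels of the 8 genes (columns, CPM printed in each cell, color on a log10 scale of CPM + 1) in each marker-gated leukocyte class (lines) of the steady-state and AngII libraries, with the number of cells at the right. *Spp1* and *Thbs1* stand at 16.1 and 2.68 CPM in steady-state macrophages and at 1208 and 522 CPM on AngII; no migratory dendritic cell was gated at steady state.

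In a 3′ library each molecule is counted once whatever its length, so the 8 genes can be ranked by CPM within a group, while their splice forms are not resolved. At steady state macrophages had most *Fn1* (927 CPM, interval 884 to 972), then *Tgfbi* (634, 598 to 671) and *Ecm1* (257, 235 to 281). *Col14a1* (22.0, 15.8 to 29.9) and *Spp1* (16.1, 10.9 to 23.0) followed with overlapping intervals. *Sparc* at 3.76 CPM, *Thbs1* at 2.68 CPM and *Vcan* at 0.537 CPM came last, each overlapping its neighbour. On AngII the order was *Fn1* at 1486 CPM, *Spp1* at 1208, *Tgfbi* at 936, *Thbs1* at 522, *Ecm1* at 216, *Vcan* at 75.6, *Col14a1* at 14.3 and *Sparc* at 6.16 CPM. No neighbours overlapped in that library. *Spp1* thus moved from the fifth place to the second.

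In macrophages, 3 of the 8 genes passed a 2-fold difference between AngII and steady state, all upward: *Spp1*, *Thbs1* and *Vcan*. Osteopontin (*Spp1*) and thrombospondin (*Thbs1*) are matricellular proteins that bind cell-surface receptors, and versican (*Vcan*) is a large proteoglycan that binds hyaluronan. None of the 8 was at or below 0.5 times. Among all 9744 genes with at least 50 UMIs in the 2 groups together, 6.47% were at least 2 times higher, 6.18% at most 0.5 times, and 12.6% past 2-fold in either direction. The median log2 ratio of the 8 genes was 0.70, against -0.02 over all these genes. *Spp1*, *Thbs1* and *Vcan* reached the minimum of 50 UMIs through the AngII group. They had 10392, 4494 and 650 UMIs there, against 30, 5 and 1 at steady state. The 8 genes were also chosen with earlier results of these data known, so the count beside the all-gene share is a description.

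*Spp1* stood at 16.1 CPM in steady-state macrophages and at 1208 CPM on AngII, a ratio of 75.0 (interval 52.5 to 111). All 30 steady-state UMIs lay in 1 macrophage, which held all 8 macrophage markers and no fibroblast marker. Without the top cell of each group the steady-state level was 0, and with that 0 set to 3 UMIs the ratio was 653. Without cells holding 2 markers of a second lineage the ratio was 36.5, and pooled over macrophage subsets (Mantel-Haenszel) it was 41.3. The AngII UMIs were also uneven: 1 cell held 1280 of 10392, or 12.3%, and 7 cells held 50% of them. *Spp1* was seen in 0.719% of steady-state macrophages (1 of 139, median depth 10682 UMIs) and in 30.7% on AngII (28.7 to 32.7%, median depth 1151 UMIs). After thinning to 1000 UMIs, which kept 137 of 139 and 1179 of 2064 macrophages, the shares were 0.730% and 23.3%. The B-cell shares at that depth were 0% and 5.71%.

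*Thbs1* stood at 2.68 CPM (5 UMIs, 4 of them in 1 cell) in steady-state macrophages and at 522 CPM on AngII. The ratio was 195 (83.4 to 600). After thinning it was 25.3 with the steady-state count of 0 set to 3 UMIs (exact lower limit 20.5). With macrophages taken as cells holding *Adgre1* and *Itgam* it was 11.0, and over all settings it ran from there to 921, the latter without the top cell of each group and with 1 steady-state UMI left. *Thbs1* was spread over many cells on AngII, the top cell holding 3.49% and 56 cells holding 50%. The share of macrophages with a UMI was 36.9% unthinned and 28.0% thinned, against 1.44% and 0% at steady state and 4.29% of thinned AngII B cells.

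*Vcan* was counted once in the steady-state macrophages (0.537 CPM) and reached 75.6 CPM on AngII, a ratio of 141 whose interval runs from 25.2 to 5569. At the depth of 1000 UMIs the steady-state count was 0, and with that 0 set to 3 UMIs the ratio was 3.25 (exact lower limit 2.59). With *Adgre1* and *Itgam* as the gate the ratio was 8.10, and with each cell weighing the same 377. The thinned share on AngII was 5.77% (4.51 to 7.25%), and 0% of thinned B cells held a UMI. The direction was upward under all 12 settings that gave a ratio for *Spp1*, *Thbs1* and *Vcan*.

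Fibronectin (*Fn1*), the main adhesive glycoprotein of provisional matrix, stood at 927 CPM at steady state and 1486 CPM on AngII, a ratio of 1.60 (1.52 to 1.69). The steady-state UMIs sat in few cells: 26 of 139 macrophages (18.7%) held any, and 5 cells held 50% of them. On AngII 60.5% of macrophages held a UMI. Thinned, the shares were 11.7% (6.82 to 18.3%) and 55.6% (52.7 to 58.4%), and the ratio of levels was 3.31. It was 2.95 with each cell weighing the same and 2.02 where a lead of 2 markers was asked for, so the side of the 2-fold line depended on how cells were weighted and gated.

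*Tgfbi*, a secreted protein that binds integrins and collagen, rested at 634 CPM at steady state and 936 CPM on AngII, with a ratio of 1.48 (1.39 to 1.57). It was the most evenly spread of the 8 genes at steady state, with 2.88% of the UMIs in the top cell. Its share was 92.1% of the deep steady-state macrophages and 62.7% of the shallow AngII ones. After thinning the shares were 40.1% (31.9 to 48.9%) and 51.7% (48.8 to 54.6%). The order of the libraries thus turned with depth, though the thinned intervals overlapped at their edges. Thinned B cells held *Tgfbi* in 0% and 10.0% of cells.

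*Ecm1*, which encodes extracellular matrix protein 1, stood at 257 CPM and 216 CPM, a ratio of 0.841 (0.760 to 0.932). Its share was 57.6% and 29.1% unthinned and 21.2% and 16.0% thinned, and those thinned intervals (14.7 to 29.0% and 14.0 to 18.3%) overlapped. *Col14a1*, a collagen that sits on the surface of collagen fibrils, stood at 22.0 CPM (41 UMIs) and 14.3 CPM (123 UMIs), a ratio of 0.650 (0.453 to 0.949). With each cell weighing the same the ratio was 0.312, past 2-fold. Thinned it was 0.136 (0.0390 to 0.488), which rests on 6 steady-state and 7 AngII UMIs, below the 50 UMIs asked for at full depth. The thinned shares were 2.92% and 0.594%. Monocytes held no *Col14a1* UMI in either library. On AngII 3 UMIs would be 1.76 CPM, and the exact upper limit was 2.16 CPM.

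*Sparc*, a collagen-binding matricellular protein, was at the edge of detection in macrophages, with 7 UMIs (3.76 CPM) at steady state and 53 UMIs (6.16 CPM) on AngII. The ratio of 1.64 (0.743 to 4.28) was not distinguishable from 1 at this depth. After thinning 1 steady-state and 6 AngII UMIs were left, too few to read a direction from (0.697, 0.0846 to 32.1). Of the 33 *Sparc* UMIs of the filtered steady-state cells, 25 lay in the 1 barcode gated as smooth muscle, in which the 8 smooth muscle markers summed to 30640 CPM and no macrophage marker was found. Without the cell filter the ratio was 10.8; 1 AngII barcode so added, with 6926 genes, held 343 *Sparc* UMIs. That barcode held all 8 macrophage markers and 7 of 8 fibroblast markers, the latter at 12743 CPM in sum. Macrophages with a *Sparc* UMI had fibroblast markers at 48.5 CPM (6 cells) against 6.32 CPM in the others at steady state, and at 23.8 CPM (35 cells) against 11.4 CPM on AngII. Endothelial markers stood at 8.08 against 22.4 CPM at steady state and at 66.6 against 14.1 CPM on AngII in these groups. For *Col14a1* in Lyve1-type resident macrophages, fibroblast markers stood at 15.3 CPM with a UMI and 9.12 CPM without at steady state, and at 7.85 and 11.4 CPM on AngII. Beside *Col14a1* at steady state smooth muscle markers stood at 76.7 and 24.6 CPM and endothelial markers at 57.5 and 19.2 CPM. The part of such cells in the 2 genes' levels was not tested.

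Macrophages were further gated by lists of 6 markers, and results are given for 3 of the subsets: Lyve1-type resident cells (117 at steady state and 623 on AngII), Ear2-type cells (15 and 226) and interferon-response cells (1 and 94). In addition, 6 and 1067 macrophages fell in no subset. The matrix genes differed in where they were found among these. On AngII *Fn1* was higher in Ear2-type than in resident cells, *Spp1* and *Col14a1* were lower, and *Ecm1* differed little between the 3 subsets, from 199 to 235 CPM.

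On AngII *Spp1* stood at 1542 CPM in the unplaced macrophages, with 34.2% of the UMIs in 1 cell, at 688 CPM in resident, 660.5 in interferon-response and 92.2 in Ear2-type cells. The resident (661 to 715) and interferon-response (608 to 717) intervals overlapped, and the Ear2-type level was 0.134 times the resident level (0.109 to 0.163). In these subsets 1 cell held 28.4% of the resident, 30.1% of the interferon-response and 10.6% of the Ear2-type *Spp1* UMIs. A UMI was found in 20.6% of resident and 17.7% of Ear2-type cells kept after thinning, so the subsets differed more in level than in share. *Thbs1* stood at 685 CPM in the unplaced, 465 in interferon-response, 405 in Ear2-type and 310 in resident cells. *Vcan* stood at 120 CPM in the unplaced, 92.2 in Ear2-type, 86.8 in interferon-response and 32.1 in resident cells, and the first 3 intervals overlapped their neighbours. The proteoglycan thus was 2.87 times higher in Ear2-type than in resident cells (2.19 to 3.77). *Tgfbi* stood at 1223 CPM in the unplaced, 962 in interferon-response, 728 in resident and 678 in Ear2-type cells, the last 2 with overlapping intervals. *Col14a1* stood at 20.7 CPM in resident and 3.55 CPM in Ear2-type cells, a ratio of 0.172 (0.0456 to 0.458) of the latter to the former.

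*Fn1* separated the subsets at steady state. Ear2-type cells held 3127 CPM, with a UMI in 14 of 15, and resident cells 198 CPM, with 60.1% of those UMIs in 1 cell; the ratio was 15.8 (13.8 to 18.2). On AngII the Ear2-type level was 3061 CPM, 0.979 times the steady-state level (0.915 to 1.05). The resident level was 909 CPM, 4.60 times that at steady state (4.06 to 5.23), and 42.8% of resident cells held a UMI after thinning, against 3.45%. The rise within the resident gate thus exceeded the 1.60 of all macrophages. A UMI of the eYFP gene was found in 76.9% of resident cells at steady state and 29.2% on AngII. After thinning these shares were 19.0% and 12.3%. Whether the gate held the same mix of cells in both libraries was not tested.

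Resident macrophages also held more of the 3 genes past 2-fold on AngII. *Spp1* rose from 22.1 to 688 CPM, 31.1 times (21.7 to 46.2). All 30 steady-state UMIs of *Spp1* lay in 1 resident cell, and 1 cell held 28.4% of the AngII ones, so this ratio rests on few cells. *Thbs1* rose from 1 UMI to 310 CPM, a ratio of 421 with an interval from 75.4 to 16639. *Vcan*, at 0 UMIs at steady state, stood at 32.1 CPM. With the 0 set to 3 UMIs its ratio was 14.5 (exact lower limit 11.6). *Tgfbi* in these cells stood at 705 and 728 CPM (ratio 1.03, 0.959 to 1.11) and *Ecm1* at 218 and 235 CPM (1.08, 0.941 to 1.23), so neither differed beyond counting error. In Ear2-type cells *Tgfbi* was 1.64 times higher on AngII (1.38 to 1.97) and *Ecm1* 0.587 times (0.468 to 0.737).

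**Figure D2:**
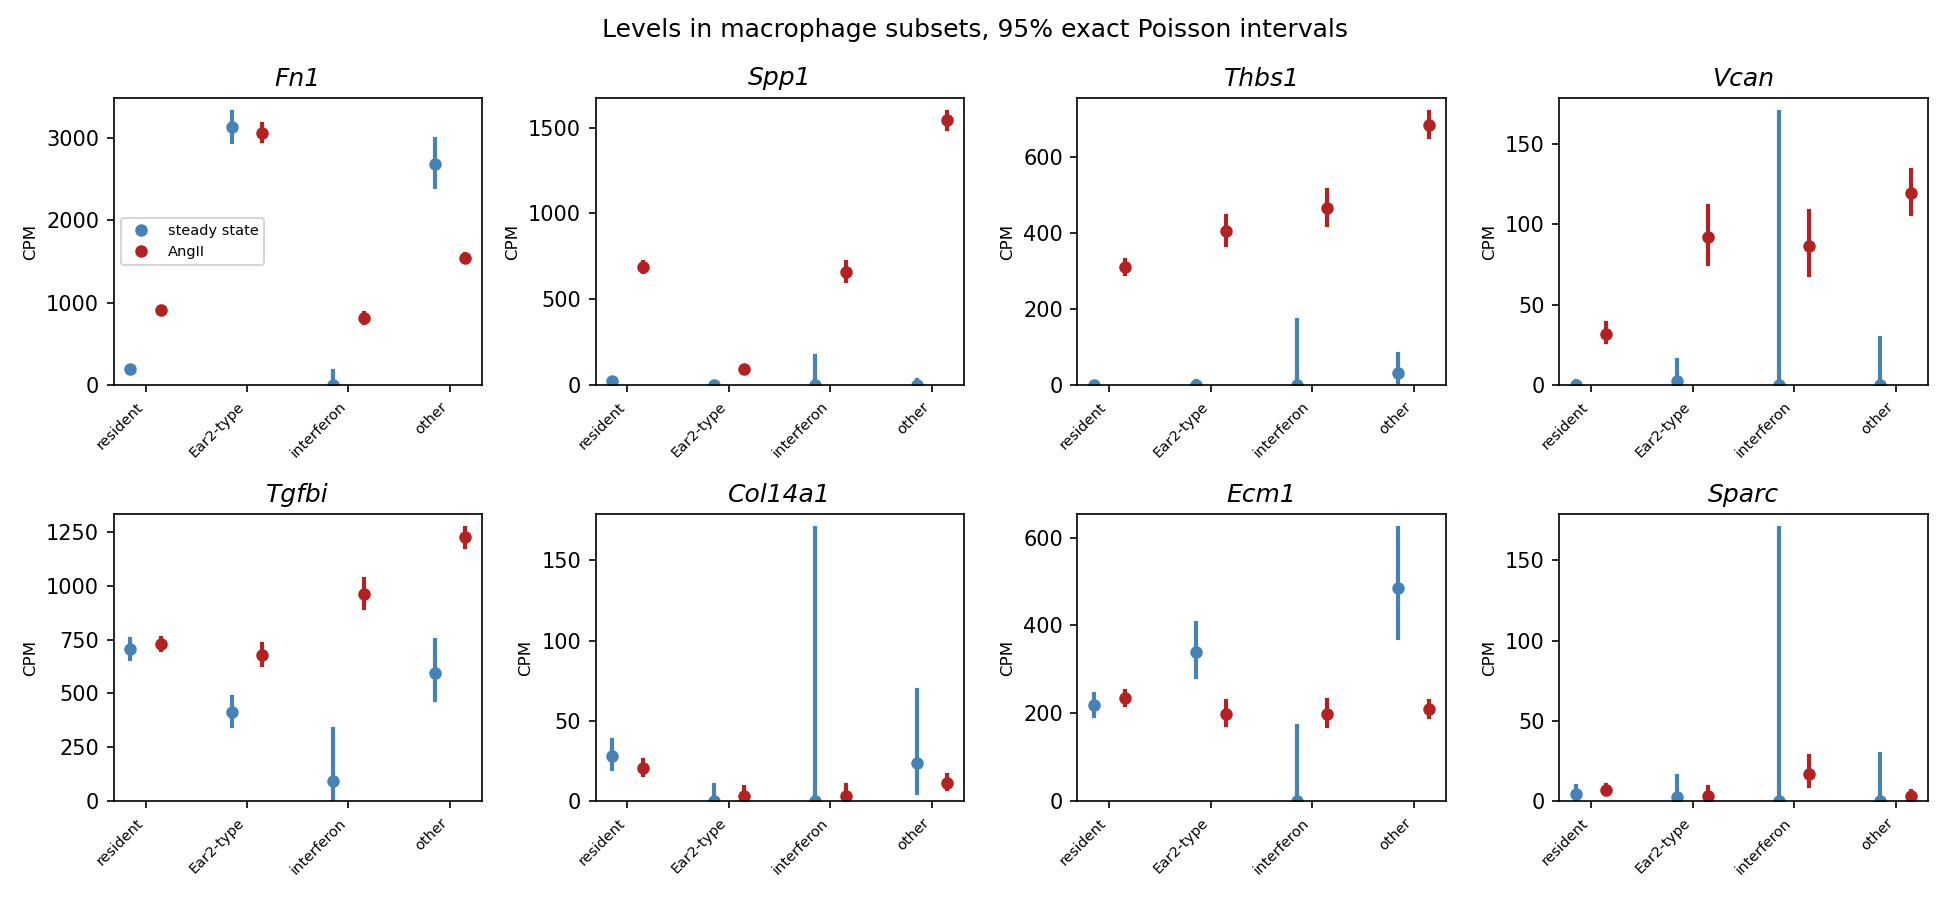
CPM (linear axes) of each gene in 3 macrophage subsets and the unplaced macrophages (other) of the steady-state (blue) and AngII (red) libraries; bars are 95% exact Poisson intervals and each library is 1 sample. *Fn1* stands at 3127 and 3061 CPM in Ear2-type cells and at 198 and 909 CPM in resident cells; the interferon-response group at steady state is 1 cell.

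Monocytes, the blood-derived precursors that enter inflamed tissue, carried more *Thbs1*, *Vcan* and *Tgfbi* than macrophages on AngII. *Thbs1* stood at 1753 CPM in monocytes, 3.36 times the macrophage level (3.20 to 3.52). *Vcan* at 589 CPM was 7.79 times that level (7.05 to 8.61), and *Tgfbi* at 1692 CPM was 1.81 times (1.73 to 1.89). *Fn1* did not differ beyond counting error, at 1480 CPM (ratio 0.996), while *Spp1* was lower at 749 CPM (0.620) and *Ecm1* at 142 CPM (0.655). The top cell held 8.01% of the monocytes' *Thbs1* UMIs and 3.78% of their *Vcan* UMIs, so these levels did not rest on single cells.

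The 12 steady-state monocytes held *Thbs1* at 583 CPM, with 75 of 106 UMIs in 1 cell, and *Vcan* at 99.1 CPM, with 12 of 18 in 1 cell. Against them the AngII monocytes were 3.01 times higher in *Thbs1* (2.48 to 3.68) and 5.94 times in *Vcan* (3.74 to 10.1). *Tgfbi* rose from 594 to 1692 CPM (2.85, 2.35 to 3.48). *Spp1* went from 0 UMIs to 749 CPM, a ratio of 45.3 with the 0 set to 3 UMIs (exact lower limit 36.8). *Ecm1* went from 1 UMI to 142 CPM, a ratio of 25.7 with an interval from 4.58 to 1021. *Fn1* stood at 1007 and 1480 CPM (1.47).

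Other leukocytes held some of these transcripts as well. On AngII neutrophils (218 cells) stood at 654 CPM of *Spp1*, 602 of *Thbs1*, 519 of *Tgfbi* and 359 of *Fn1*; their *Spp1* interval (586 to 728) overlapped that of monocytes (708 to 791), and their *Thbs1* interval (537 to 673) that of macrophages (507 to 538). Type-1 dendritic cells held *Spp1* at 42.8 CPM (10 UMIs in 5 of 11 cells) at steady state and 203 CPM on AngII (ratio 4.73, 2.54 to 9.96), in a lineage where *Fn1* was at 0 and 41.2 CPM. Type-2 dendritic cells had *Fn1* at 294 and 303 CPM. Mast cells had *Ecm1* at 159 CPM (8 UMIs in 8 cells, 68.8 to 314) and 144 CPM (4 UMIs in 19 cells, 39.3 to 370), few UMIs in both libraries. In several small groups 1 cell made the level: 127 of 129 *Spp1* UMIs of migratory dendritic cells, 38 of 42 *Spp1* UMIs of nonclassical monocytes on AngII, and 99.4% of the *Fn1* UMIs of the 12 nonclassical monocytes at steady state. The unassigned AngII cells stood at 1333 CPM of *Spp1*, 1218 of *Fn1*, 982 of *Tgfbi* and 680 of *Thbs1*.

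The eYFP mark splits macrophages by origin. Macrophages with 1 or more UMIs of the marker gene counted as *Yfp*+, which gave 104 *Yfp*+ and 35 *Yfp*− macrophages at steady state and 329 and 1735 on AngII. The share called *Yfp*+ depended on depth, at 74.8% and 15.9% unthinned and 19.7% and 8.74% thinned. The groups differed in median depth as well, with 11536.5 against 6673 UMIs at steady state and 5344 against 1028 on AngII. On AngII *Yfp*− macrophages held more *Spp1*, *Thbs1* and *Vcan*, and *Yfp*+ macrophages more *Col14a1*. Of the 8 genes 1 was at least 2 times higher in *Yfp*+ cells and 3 were at most 0.5 times, against 1.12% and 1.08% of 9209 genes and 2.19% in either direction. The median log2 ratio of the 8 was -0.40, against 0.05 over all genes.

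*Spp1* stood at 357 CPM in *Yfp*+ and 1732 CPM in *Yfp*− macrophages on AngII, a ratio of 0.206 (0.194 to 0.219). It was 0.361 after thinning and 0.450 with each cell weighing the same, and it stayed below 0.5 under all 13 settings. The level rested on few cells, with 50% of the UMIs in 7 *Yfp*+ and in 5 *Yfp*− macrophages. The top cells held 12.4% and 13.9%. Shares of cells with a UMI were 35.0% of *Yfp*+ and 29.9% of *Yfp*− macrophages unthinned, and turned to 17.3% and 25.2% thinned. *Thbs1* stood at 305 and 656 CPM (0.465) and *Vcan* at 44.9 and 94.4 CPM (0.475). Both lost the 2-fold difference after thinning (0.521 and 0.596) and when pooled over subsets (0.628 and 0.643). *Thbs1* also lost it with each cell weighing the same (0.647), and *Vcan* with a lead of 2 markers (0.511), without the cell filter (0.504) and without cells holding markers of a second lineage (0.560). Within resident macrophages alone *Spp1* had a ratio of 0.320 (0.293 to 0.349), but 1 cell held 39.4% of the *Yfp*− UMIs and 2 cells held 50%. There *Thbs1* had a ratio of 0.530 and *Vcan* of 0.972 (0.666 to 1.42).

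*Col14a1* stood at 22.9 CPM (75 UMIs) in *Yfp*+ and 9.01 CPM (48 UMIs) in *Yfp*− macrophages on AngII, a ratio of 2.54 (1.75 to 3.73). It was 1.59 with each cell weighing the same, 1.87 without the cell filter and 2.64 (1.54 to 4.77) within resident macrophages. Thinned, 3 and 4 UMIs were left. *Fn1* (1268 and 1620 CPM, 0.783), *Tgfbi* (762 and 1043 CPM, 0.731) and *Ecm1* (217 and 216 CPM, 1.01) did not pass 2-fold. The *Fn1* ratio turned to 1.05 when pooled over subsets. *Sparc* stood at 5.80 CPM (19 UMIs) and 6.38 CPM (34 UMIs), a ratio of 0.909 (0.490 to 1.64) that ran from 0.108 without the cell filter to 1.94 without cells holding markers of a second lineage, and lay above 1, so with the direction turned, in 5 of 13 settings.

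At steady state 3 of the 8 genes had 50 UMIs in the *Yfp* groups together, and 0 of the 3 passed 2-fold, against 3.69% of 5179 genes at least 2 times higher, 1.74% at most 0.5 times and 5.43% in either direction. *Fn1* stood at 803 CPM in *Yfp*+ and 1521 CPM in *Yfp*− macrophages, a ratio of 0.528 (0.475 to 0.588). Pooled over subsets its direction turned, to 1.15. With a lead of 2 markers it was 0.945, and without cells holding markers of a second lineage it was 0.397. In resident cells all 268 *Fn1* UMIs were in *Yfp*+ cells, 60.1% of them in 1 cell. With the *Yfp*− count of 0 set to 3 UMIs the ratio was 12.1 (exact lower limit 9.81). A UMI was found in 9 of 90 *Yfp*+ resident cells (4.68 to 18.1%) and 0 of 27 *Yfp*− ones (0 to 12.8%), so these shares overlapped. The *Yfp*− resident cells were also shallower, with a median of 5215 against 10975 UMIs. *Tgfbi* stood at 659 and 512 CPM (1.29, 1.09 to 1.53) and *Ecm1* at 259 and 248 CPM (1.04, 0.818 to 1.34), a ratio above 1 in 10 of 13 settings and turned in the others, to 0.625 with each cell weighing the same. In resident cells *Ecm1* was 0.570 times (0.425 to 0.775) in *Yfp*+ cells, with 57.9% of the *Yfp*− UMIs in 1 cell.

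**Figure D3:**
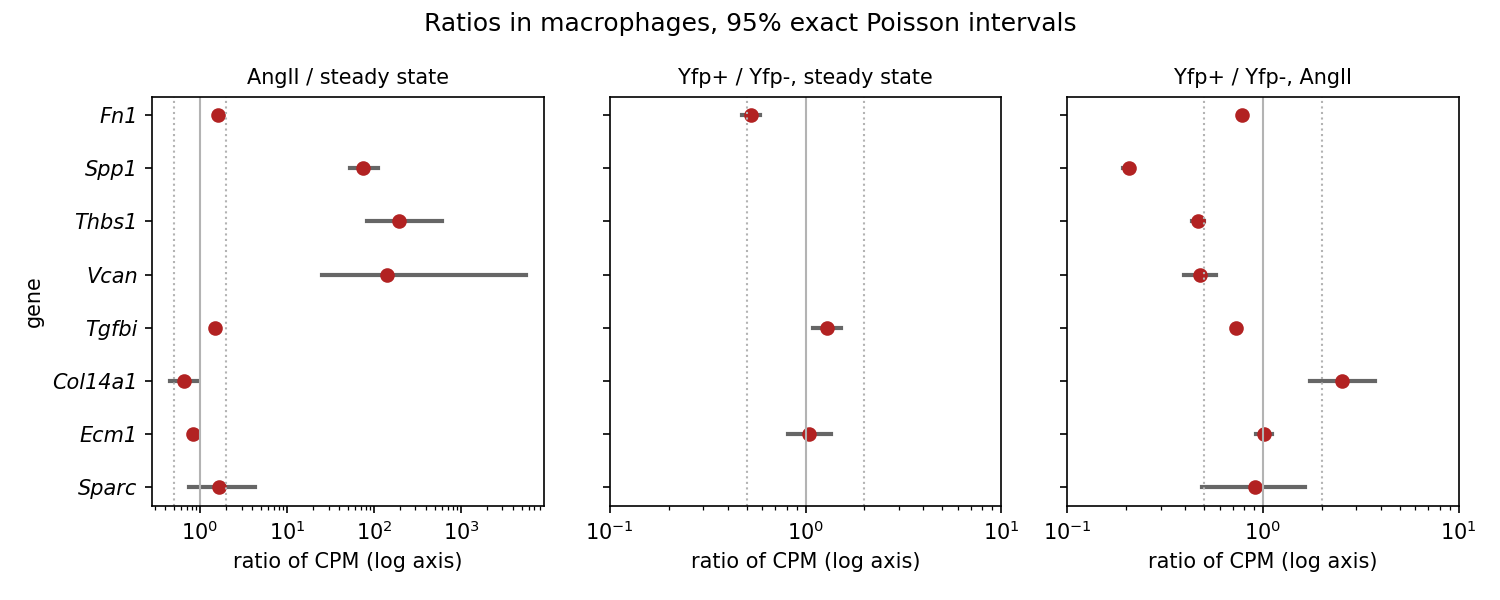
Ratios of CPM in macrophages (log axes) for AngII over steady state and for *Yfp*+ over *Yfp*− cells of each library, with 95% exact Poisson intervals; dotted lines mark 0.5 and 2, and genes with fewer than 50 UMIs are not drawn. *Spp1* lies at 75.0 between the conditions and at 0.206 between the *Yfp* groups on AngII.

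Receptors for these proteins were counted in the same cells. Of 11 receptor genes, 10 had 50 UMIs in macrophages of both libraries together, 1 of them at least 2 times higher on AngII (*Itgb5*, an integrin subunit, 138 against 53.7 CPM, 2.57) and 1 at most 0.5 times (*Cd36*, which encodes a receptor for thrombospondin, 127 against 685 CPM, 0.186). Their median log2 ratio was 0.48, against -0.02 over all 9744 genes, of which 12.6% passed 2-fold. *Cd44*, a receptor for hyaluronan and osteopontin, stood at 375 against 197 CPM (1.91). Between *Yfp*+ and *Yfp*− macrophages 1 of 8 receptors passed 2-fold at steady state (*Itgb5*, 59.0 against 27.9 CPM, 2.11, interval 1.07 to 4.77), against 5.43% of all genes, and 0 of 10 on AngII, against 2.19%. The median log2 ratios were 0.20 and 0.07, against 0.02 and 0.05 over all genes. Of 26 other matrix genes 5 reached 50 UMIs between the conditions, with a median log2 ratio of 0.76, and 2 were at least 2 times higher on AngII: *Emilin1* (23.1 against 4.83 CPM, 4.79) and *Fgl2* (143 against 66.0 CPM, 2.17). Between the *Yfp* groups 0 of 3 of them passed 2-fold at steady state and 0 of 5 on AngII. The fibrillar collagen genes *Col1a1* and *Col1a2* stood at 0 CPM in steady-state macrophages and at 1.63 and 1.98 CPM on AngII, and no fold is given for them.

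Patterns of level were compared over the 16 class and library groups with at least 20 cells, as Pearson r of log2(CPM + 10). These groups share libraries and depth, so r is a description. Among the 3 genes most like *Spp1* were *Thbs1* (0.884) and *Galns* (0.883), and among those most like *Thbs1* were *Galns* (0.939) and *Chil3* (0.915), the latter itself a marker of the monocyte gate. *Vcan* was most like *Plcb1* (0.907), *Saa3* (0.874) and *Dmkn* (0.865). *Fn1* was most like *Ccl9* (0.953), *Ctsl* (0.942) and *Ccl6* (0.934), *Tgfbi* like *Lrrc25* (0.979), *Ralb* (0.965) and *Tmed7* (0.945), and *Ecm1* like *Tmem37* (0.979), *Ccl2* (0.974) and *Slc36a1* (0.961). *Col14a1* (179 UMIs) and *Sparc* (102 UMIs) had too few UMIs for this.

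On GRCm38 (GENCODE M21; the authors counted on M24), *Spp1* lies on chromosome 5 at 104435118 to 104441050 (plus strand, ENSMUSG00000029304.14) and *Vcan* on chromosome 13 at 89655312 to 89742509 (minus strand, ENSMUSG00000021614.16). *Fn1* lies on chromosome 1 at 71585520 to 71653200 (minus strand, ENSMUSG00000026193.15) and *Thbs1* on chromosome 2 at 118111876 to 118127133 (plus strand, ENSMUSG00000040152.8). Promoters of 5 of the 8 genes were found in RefSeq on GRCm38.p6, and *Fn1*, *Thbs1* and *Col14a1* were not matched in the promoter set used. The promoters of 2 of the genes past 2-fold on AngII are printed, from 250 bases before to 50 after the start, 5′ to 3′ on the gene's strand. Capitals mark the motif CCAAT or its reverse complement ATTGG.
*Spp1*, chr5:104434861-104435160, plus strand: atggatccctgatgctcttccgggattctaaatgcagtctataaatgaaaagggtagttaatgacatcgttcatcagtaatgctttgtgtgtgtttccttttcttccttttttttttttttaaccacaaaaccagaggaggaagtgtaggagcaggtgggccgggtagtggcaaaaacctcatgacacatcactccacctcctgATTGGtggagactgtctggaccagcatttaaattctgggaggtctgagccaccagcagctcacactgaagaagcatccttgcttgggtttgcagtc
*Vcan*, chr13:89742463-89742762, minus strand: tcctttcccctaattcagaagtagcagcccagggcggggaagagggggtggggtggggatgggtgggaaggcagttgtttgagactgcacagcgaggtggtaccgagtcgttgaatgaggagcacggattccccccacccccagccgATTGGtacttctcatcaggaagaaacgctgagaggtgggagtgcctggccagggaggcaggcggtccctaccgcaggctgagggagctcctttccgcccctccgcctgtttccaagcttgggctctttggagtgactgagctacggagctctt
*Spp1* has a second entry, chr5:104435942-104436241, which held neither CCAAT nor TATAAA and is not printed. CCAAT was found in 2 of the 5 genes matched, *Spp1* and *Vcan*, and not in *Tgfbi*, *Ecm1* or *Sparc*. Each printed window held the motif once, as do 37.4% of all 32851 promoters at least once on either strand. TATAAA was found once in the printed *Spp1* window and not in the *Vcan* window, and 13.6% of all promoters hold it. TGACTCA, held by 5.20% of promoters, was found in neither. The *Ecm1* promoter, which is not printed, held TATAAA and TGACTCA once each. A match is a description of letters and not of a binding site.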

How the data were processed

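The authors deposited counts of UMIs for each gene in each droplet called as a cell, made by Cell Ranger 3.1.0 (build GRCm38.p6, genes of GENCODE M24, eYFP added). The counts are whole numbers and were not normalized. Cells had to show 300 to 6500 genes, with no more than 5% of their UMIs mitochondrial, and were gated by marker lists. Levels are CPM, the summed UMIs of a gene over all UMIs of the group on a common scale. With 1 library per condition there was no test, and a gene counts as past 2-fold at a ratio of at least 2 or at most 0.5 with at least 50 UMIs in the groups together at full depth. For a ratio, a count of 0 was set to 3 UMIs. Genes named are the 8 genes, gate markers, 2 gene lists and, for each gene, the 3 most similar by r among genes with at least 200 UMIs. The genes and lists were chosen with earlier results of these data known. Alternatives changed the cell filter, gate, depth, weighting of cells, top cell, doublets, free RNA, fold, UMI minimum, *Yfp* call and pooling over subsets, 1 at a time. Subtraction of the level in B cells with fewer than 2 macrophage markers was added after the data were seen. Doublets were left in. Tools were SciPy 1.17.1, NumPy 2.4.6 and Matplotlib 3.10.9 under Python 3.11.15. The ratios were also computed on Poisson counts simulated with known folds. That simulation holds counting error only, so it cannot speak to the uneven spread of UMIs over cells.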

Additional observations from a re-analysis of the deposited data

Results flagged for a closer look

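*Tgfbi* was 1.29 times higher in *Yfp*+ than in *Yfp*− macrophages at steady state and 0.731 times on AngII, so the direction differed between the libraries. The steady-state ratio was above 1 in all 13 settings. Its interval included 1 after thinning (1.61, 0.899 to 3.09) and within resident cells (1.05, 0.856 to 1.29). The difference between the libraries was not tested.

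Barcodes left out by the cell filter held the genes as well. In the 221 AngII barcodes left out, *Fn1* stood at 1668 CPM, *Spp1* at 615 CPM, *Thbs1* at 390.2 CPM, *Vcan* at 110.0 CPM, *Tgfbi* at 754 CPM and *Sparc* at 146 CPM, with 343 of the 360 *Sparc* UMIs in 1 barcode.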

How the results depend on the processing

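In macrophages, 3 of the 8 genes were past 2-fold between AngII and steady state. The count was 5 after thinning to 1000 UMIs and 5 as the mean of the CPM of single cells, in both cases with *Fn1* and *Col14a1* added to *Spp1*, *Thbs1* and *Vcan*, and 6 at a fold of 1.5. Between *Yfp*+ and *Yfp*− macrophages at steady state 0 were past 2-fold. The count was 1 without cells with 2 markers of a second lineage (*Fn1*), 1 with macrophages taken by *Adgre1* and *Itgam* (*Thbs1*), and 1 at a fold of 1.5 (*Fn1*). On AngII 4 were past 2-fold between the *Yfp* groups, and 2 after thinning, 2 as the mean of the CPM of single cells and 2 pooled over subsets by the Mantel-Haenszel method. The minimum of 50 UMIs was applied at full depth. The thinned *Col14a1* ratios counted here rest on 13 UMIs between the conditions and 7 UMIs between the *Yfp* groups, so they carry little weight. The cause of these moves was not tested. The other 35 counts over these comparisons stayed within 1.5 times of the main count, and no gene past 2-fold in the main setting changed direction. *Spp1* ranged from 36.5 to 653 between conditions, the latter with a steady-state count of 0 set to 3 UMIs. Between the *Yfp* groups on AngII it ranged from 0.157 to 0.450. No paired analysis was possible because each condition is 1 library of pooled animals. Few UMIs limit *Sparc*, *Thbs1* and *Vcan*, of which steady-state macrophages held 7, 5 and 1.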
